A study of Mus musculus with 6 samples.

Results

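The IL-22, IL-6 and STAT3 axis was examined as 10 genes chosen by symbol from the 55487 genes of the count table: the receptor genes Il22ra1, Il10rb, Il10ra, Il6ra, Il6st, Osmr, Il11ra1 and Il17rc, the transcription factor gene Stat3, and the feedback inhibitor gene Socs3. Each symbol was found, and all 10 genes passed the filter on low counts, as did 14650 genes of the whole table. RNA-seq had been performed on colonic intestinal epithelial cells (IECs) of mice on a C57BL/6J background that drank 2% dextran sodium sulphate (DSS), a polymer that injures the colonic epithelium and causes colitis, at 2 months of age. The labels gave 3 libraries to the genotype NSD2-FF (Nsd2f/f, floxed Nsd2 without Cre) and 3 to NSD2-FF-VILCRE (Nsd2Vil-KO, the same floxed alleles with Villin-Cre). The titles and count columns of the NSD2-FF libraries call them WT, while the study names its RNA-seq controls Nsd2f/f. With the genotypes taken so, every library came from floxed, DSS-treated mice, and no untreated library was analysed here. Villin-Cre deletes floxed DNA in intestinal epithelial cells and spares the immune and stromal cells around them. The IECs were released with EDTA and the methods name no sort, so RNA of other cells could be present, and in such bulk samples fewer cells of a type and less RNA per cell cannot be told apart. The day of collection and the number of mice behind each library are not given in the sources used here, so that p-values measure only the spread between these libraries.

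IL-22 acts on epithelial cells through a receptor of IL-22RA1 and the shared chain IL-10RB. IL-6, IL-11 and oncostatin M act through their own receptor chains together with gp130, the product of Il6st. Both receptor types activate JAK kinases, which phosphorylate STAT3, and STAT3 then induces its own inhibitor SOCS3. In the colon this signalling is known for epithelial repair after injury and for the induction of antimicrobial proteins of the REG3 family. IL-17RC, a receptor chain for IL-17A and IL-17F, signals through a different adaptor, ACT1, and its cytokines often act on the same epithelial cells as IL-22.

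The libraries held 15439123 to 20350539 counted reads, and a count of 3 in a library corresponded to 0.146 to 0.242 CPM (counts divided by the TMM-scaled library size). The gene targeted by the cross, Nsd2, lay at 47.9, 51.2 and 24.6 CPM in Nsd2f/f replicates 1 to 3 and at 24.2, 10.4 and 20.8 CPM in Nsd2Vil-KO replicates 1 to 3. The groups did not overlap for Nsd2, but the library labelled Nsd2f/f replicate 3 lay close to the highest Nsd2Vil-KO library. That library and the one labelled Nsd2Vil-KO replicate 2 stood apart from the rest. They alone held Xist transcripts, with 4296 and 3684 counts against 1 to 5 in the other 4 libraries, and their mean rank correlations with the other libraries were 0.937 and 0.927 against 0.959 to 0.964. Mitochondrial genes took 19.6% of the counts in Nsd2f/f replicate 3 and 5.51% to 9.13% elsewhere. Values without these libraries are therefore given beside the results. The 10 epithelial markers summed to 14153 to 18788 CPM, and each of them was above 1 CPM on average. The 5 leukocyte markers summed to 23.0 to 146.5 CPM in Nsd2f/f and 24.7 to 60.2 CPM in Nsd2Vil-KO libraries.

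No gene of the axis passed the comparison of genotypes. By the screening criterion of the study's results, a fold change above 1.2 with an unadjusted p below 0.05, edgeR's quasi-likelihood test called 0 of the 10 genes, where 3.29% of all genes tested were called. At an adjusted p below 0.05 it called 0 of 10 and 0 of all 14650 genes, and 0 of 10 had an unadjusted p below 0.05. DESeq2 and limma-voom with sample quality weights (limma-voom below) likewise called 0 of the 10 genes at an adjusted p below 0.05. These weights let the libraries count unequally. At the screening criterion DESeq2 called 1 of the 10 genes, where it called 4.32% of all genes tested, and limma-voom 3, where it called 9.83%. Of the 10 genes, 5 had a higher and 5 a lower fitted level in Nsd2Vil-KO, and the median of their log2 fold changes was 0.076, against 0.0012 over all genes tested. The libraries of the genotypes did not overlap for 3 of the 10 genes (30%), Il22ra1 and Stat3 higher and Il11ra1 lower in Nsd2Vil-KO, where the same held for 9.90% of all genes tested (5.21% higher, 4.70% lower). Only the separation of Stat3 was also present with library size scaling and on the per-length scale. On the per-length scale the median log2 difference of all genes, Nsd2Vil-KO over Nsd2f/f, was 0.14, which favours higher over lower separations. With 3 libraries against 3, the exact two-sided permutation test over the 10 distinct splits cannot give a p below 0.1, the value all 3 genes had.

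**Figure D1:**
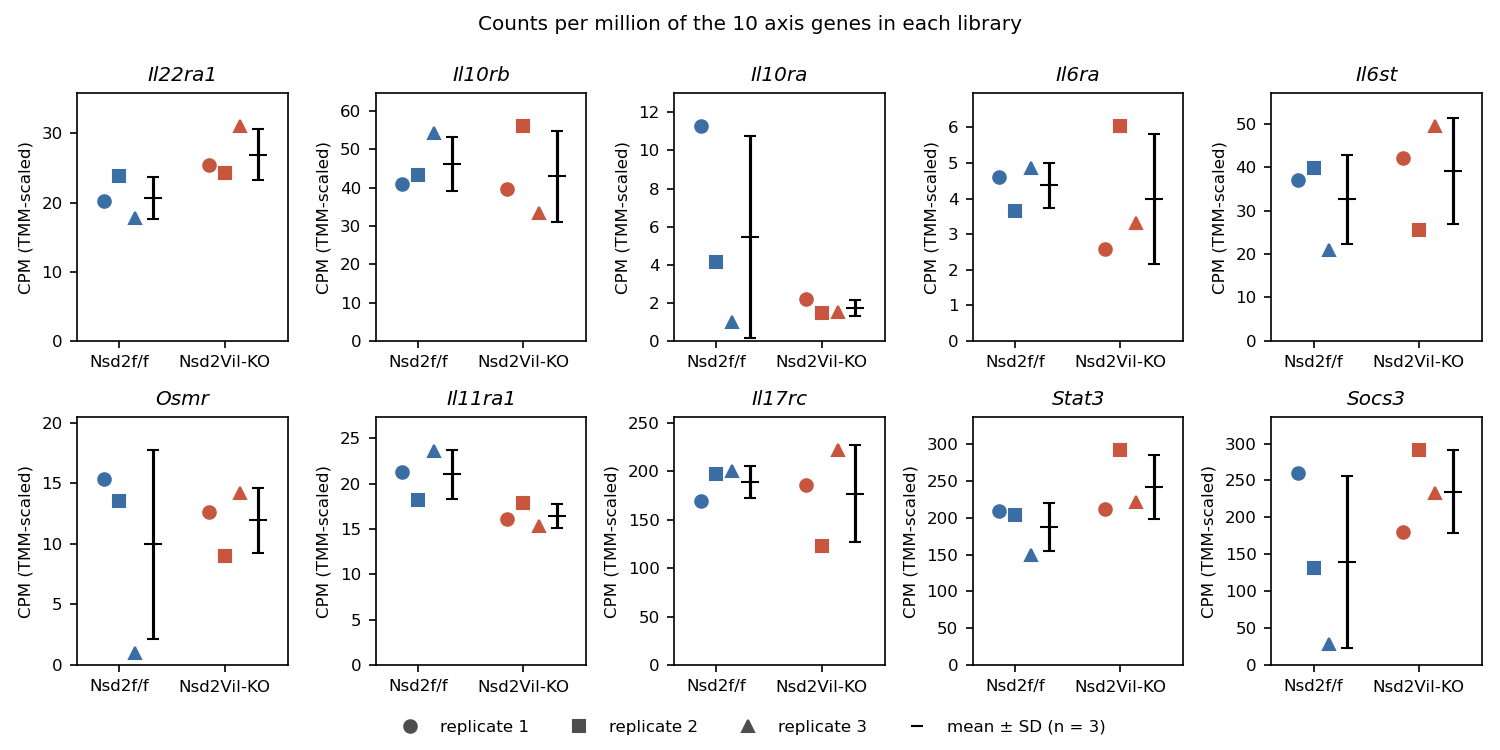
CPM (vertical axes, TMM-scaled, each starting at 0) of the 10 axis genes in the 3 Nsd2f/f (blue) and 3 Nsd2Vil-KO (red) libraries, with marker shapes for replicates and bars for the mean ± SD (n = 3). The points of the genotypes separate for Il22ra1, Il11ra1 and Stat3, and Nsd2f/f replicate 3 lies far below the other libraries for Osmr at 0.969 CPM and Socs3 at 28.0 CPM.

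Il22ra1 (ENSMUSG00000037157, GRCm38 chromosome 4, 135728172 to 135752140, plus strand) encodes the chain that confines the response to IL-22 to epithelial and other non-haematopoietic cells. It lay at 20.2, 23.8 and 17.8 CPM in Nsd2f/f and at 25.5, 24.2 and 31.1 CPM in Nsd2Vil-KO replicates 1 to 3. Every Nsd2Vil-KO library was above every Nsd2f/f library, by a narrow margin between 23.8 and 24.2 CPM. The means were 20.6 ± 3.04 and 27.0 ± 3.66 CPM (SD, n = 3), and the log2 fold change was 0.39 with a standard error of 0.21 (edgeR p = 0.105, adjusted p = 0.992, exact permutation p = 0.1). Between the Xist-bearing libraries the log2 difference was 0.45 and between the means of the other 4 it was 0.36. With library size scaling the groups overlapped, so the separation of this gene depended on the scaling, and the gene passed the screening criterion with limma-voom and when Xist entered the fit as a covariate.

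Il10rb (ENSMUSG00000022969, chromosome 16, 91406164 to 91425834, plus strand), the chain shared by the IL-22 and IL-10 receptors, lay at 40.9, 43.3 and 54.1 CPM in Nsd2f/f and at 39.5, 56.1 and 33.3 CPM in Nsd2Vil-KO replicates 1 to 3. The groups overlapped, and the Xist-bearing library was the highest of each. The means of 46.1 ± 7.05 and 43.0 ± 11.8 CPM (SD, n = 3) gave a log2 fold change of -0.10 with a standard error of 0.24 (edgeR p = 0.688, adjusted p = 0.996, exact permutation p = 0.7). Its sign turned without Nsd2f/f replicate 3 (0.033) or without Nsd2Vil-KO replicate 3 (0.054). The exons share 569 bases with the annotated gene Gm21970 on the same strand, so reads in that stretch cannot be assigned with certainty.

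Il10ra (ENSMUSG00000032089, chromosome 9, 45253837 to 45269149, minus strand), the chain that binds IL-10 and is best known from leukocytes, had the lowest p of the 10 genes. Its level was 11.3, 4.14 and 0.969 CPM in Nsd2f/f replicates 1 to 3, from 228, 70 and 12 counts, and 2.19, 1.44 and 1.53 CPM in Nsd2Vil-KO replicates 1 to 3, from 45, 26 and 30 counts. The Nsd2f/f libraries thus held both the highest and the lowest value, 11.7-fold apart, and the groups overlapped. The means were 5.47 ± 5.29 and 1.72 ± 0.410 CPM (SD, n = 3), with a log2 fold change of -1.69 and a standard error of 0.78 (edgeR p = 0.0665, adjusted p = 0.992, exact permutation p = 0.4). Without Nsd2f/f replicate 3 the log2 fold change was -2.16 and passed the screening criterion, and without Nsd2f/f replicate 1 it was -0.60 and did not. In the 4 libraries without Xist it was -2.06 and passed too, as the gene did with DESeq2, with limma-voom and without a filter on low counts. Its adjusted p was 0.375 or higher over the alternatives.

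The leukocyte markers moved with Il10ra. Ptprc, Coro1a, Laptm5, Cd53 and Cd52, of which 5 of 5 were detected in each library, summed to 146.5, 68.0 and 23.0 CPM in Nsd2f/f replicates 1 to 3 and to 60.2, 24.7 and 31.0 CPM in Nsd2Vil-KO replicates 1 to 3. Nsd2f/f replicate 1 was the highest and Nsd2f/f replicate 3 the lowest for both the receptor and the sum. As a percentage of that sum, Il10ra took 7.71, 6.09 and 4.21 in Nsd2f/f and 3.64, 5.83 and 4.94 in Nsd2Vil-KO, ranges that overlapped. The overlap came from the Xist-bearing libraries (4.21 and 5.83). In the 4 libraries without Xist the percentages did not overlap, with 7.71 and 6.09 in Nsd2f/f against 3.64 and 4.94 in Nsd2Vil-KO. Macrophage and monocyte markers also summed highest in Nsd2f/f replicate 1 (445.0 CPM) and lowest in Nsd2f/f replicate 3 (108.5 CPM), where the macrophage marker Adgre1 was at 0 counts. The part of leukocyte RNA in the Il10ra values was not tested.

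**Figure D2:**
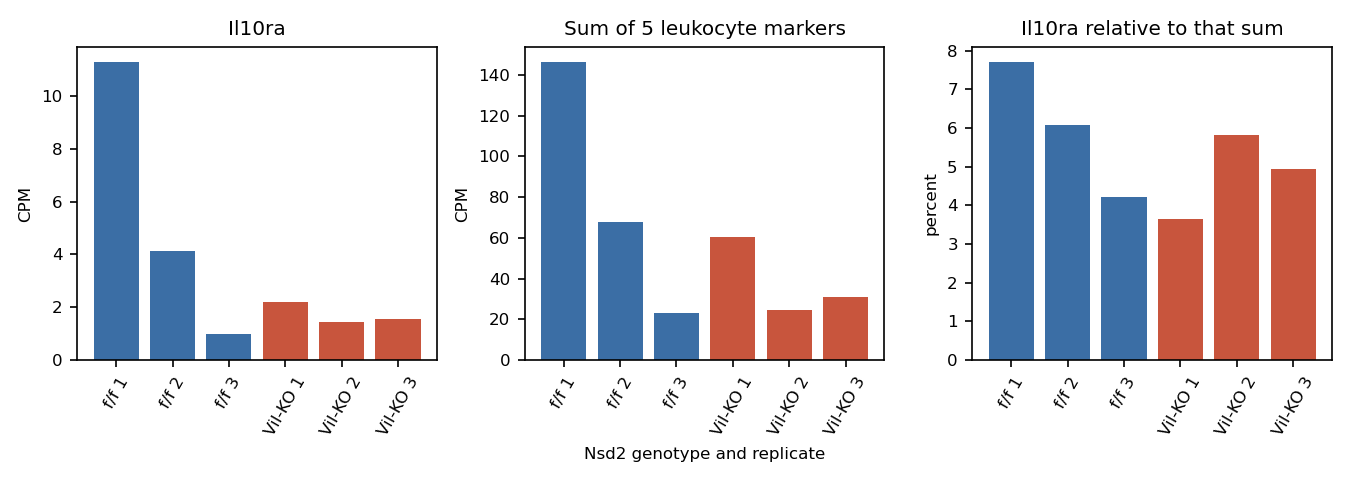
Bars from 0 for each library (f/f 1 to 3 in blue, Vil-KO 1 to 3 in red) of Il10ra in CPM, the summed CPM of 5 leukocyte markers, and Il10ra as a percentage of that sum. The first 2 panels share their highest library (Nsd2f/f replicate 1, 11.3 and 146.5 CPM) and their lowest. The percentages of the genotypes overlap between 4.21 (Nsd2f/f replicate 3) and 5.83 (Nsd2Vil-KO replicate 2), the libraries with Xist, and not among the others.

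Il6ra (ENSMUSG00000027947, chromosome 3, 89864059 to 89913196, minus strand), the chain that binds IL-6 itself, was low, at 4.61, 3.66 and 4.85 CPM in Nsd2f/f and 2.58, 6.05 and 3.32 CPM in Nsd2Vil-KO replicates 1 to 3. The Nsd2Vil-KO libraries spanned the Nsd2f/f range on both sides. The log2 fold change was -0.14 with a standard error of 0.41 (edgeR p = 0.751, adjusted p = 0.996, exact permutation p = 0.6), and it turned to 0.10 without Nsd2Vil-KO replicate 1. In the 4 libraries without Xist both Nsd2Vil-KO values were below both Nsd2f/f values, with a log2 difference of -0.47. Its exons share 242 bases with Gm42809 on the opposite strand.

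Il6st (ENSMUSG00000021756, chromosome 13, 112464070 to 112510086, plus strand), which encodes the signalling chain gp130, lay at 37.0, 39.8 and 20.8 CPM in Nsd2f/f and 42.0, 25.6 and 49.5 CPM in Nsd2Vil-KO replicates 1 to 3. In each genotype the Xist-bearing library was the lowest. The groups overlapped, and the log2 fold change was 0.26 with a standard error of 0.33 (edgeR p = 0.458, adjusted p = 0.992, exact permutation p = 0.5). It came to 0.026 without Nsd2f/f replicate 3.

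Osmr (ENSMUSG00000022146, chromosome 15, 6813577 to 6874969, minus strand), the chain that joins gp130 to receive oncostatin M, had the widest range of the 10 genes. It lay at 15.3, 13.5 and 0.969 CPM in Nsd2f/f replicates 1 to 3, from 309, 229 and 12 counts, and at 12.6, 8.99 and 14.2 CPM in Nsd2Vil-KO replicates 1 to 3. One library, Nsd2f/f replicate 3, set this range, with a level 15.8-fold below Nsd2f/f replicate 1. The means were 9.94 ± 7.82 and 11.9 ± 2.65 CPM (SD, n = 3), and the log2 fold change was 0.25 with a standard error of 0.76 (edgeR p = 0.753, adjusted p = 0.996, exact permutation p = 0.9). Without Nsd2f/f replicate 3 it turned to -0.27, and in the 4 libraries without Xist to -0.10. Fibroblasts also express Osmr, and the sum of 7 fibroblast markers was 266.0, 59.7 and 8.56 CPM in Nsd2f/f and 73.4, 5.88 and 16.9 CPM in Nsd2Vil-KO replicates 1 to 3. The part of fibroblast RNA in the Osmr values was not tested.

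Il11ra1 (ENSMUSG00000073889, chromosome 4, 41699989 to 41769474, plus strand) encodes the chain that binds IL-11. Its level was 21.3, 18.2 and 23.6 CPM in Nsd2f/f and 16.1, 17.9 and 15.3 CPM in Nsd2Vil-KO replicates 1 to 3. The Nsd2Vil-KO libraries were all below the Nsd2f/f libraries, with 17.9 and 18.2 CPM as the nearest values. The means of 21.0 ± 2.71 and 16.4 ± 1.35 CPM (SD, n = 3) gave a log2 fold change of -0.36 with a standard error of 0.20 (edgeR p = 0.125, adjusted p = 0.992, exact permutation p = 0.1). The log2 differences with and without Xist, -0.39 and -0.33, were alike, but on the per-length scale the groups overlapped. That scale shifted all genes towards higher values in Nsd2Vil-KO, by a median log2 difference of 0.14. The gene passed the screening criterion with limma-voom. Its paralog Il11ra2 held 0 counts in 5 libraries and 1 count in the other.

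Il17rc (ENSMUSG00000030281, chromosome 6, 113471427 to 113483140, plus strand) lay at 169.8, 197.0 and 200.6 CPM in Nsd2f/f and 186.2, 122.7 and 222.3 CPM in Nsd2Vil-KO replicates 1 to 3. The groups overlapped and Nsd2Vil-KO held both the lowest and the highest library. The log2 fold change was -0.10 with a standard error of 0.25 (edgeR p = 0.715, adjusted p = 0.996, exact permutation p = 0.8), and it turned to 0.11 without Nsd2Vil-KO replicate 2 and to 0.16 in the 4 libraries without Xist.

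Stat3 (ENSMUSG00000004040, chromosome 11, 100885098 to 100939540, minus strand) encodes the transcription factor on which the receptors converge. It lay at 209.7, 203.8 and 150.1 CPM in Nsd2f/f and at 211.6, 292.8 and 222.0 CPM in Nsd2Vil-KO replicates 1 to 3. Each Nsd2Vil-KO library was above each Nsd2f/f library, although Nsd2f/f replicate 1 and Nsd2Vil-KO replicate 1 differed by little. The means were 188 ± 32.8 and 242 ± 44.2 CPM (SD, n = 3), and the log2 fold change was 0.37 with a standard error of 0.23 (edgeR p = 0.150, adjusted p = 0.992, exact permutation p = 0.1). The Xist-bearing libraries held the lowest and the highest value of the gene. Their log2 difference was 0.96, whereas the means of the other 4 libraries differed by 0.068, and the fitted log2 fold change in those 4 was 0.079. The exons share 72 bases with Stat5a on the opposite strand.

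Socs3 (ENSMUSG00000053113, chromosome 11, 117966079 to 117970047, minus strand) encodes the protein that binds gp130 and JAK kinases and ends the signal. The palindrome TTCNNNGAA, the core of STAT binding sites, was searched in the RefSeq promoter windows of GRCm38.p6 (250 bases before to 50 after the annotated start, 300 bases in all). Of the 10 axis genes, 8 had a window, and 1 of the 8 held the palindrome, Socs3. Among all 27025 genes with a window, 9.55% held it. Of the other genes listed for the pathway, the inhibitor Cish and the STAT3 targets Reg3b and Steap4 are shown beside it to compare the letters. The ligand gene Il19 and Pigr, from the list of IL-17 receptor signalling and targets, also held the palindrome and are not shown. Capitals mark the match, whose pattern, with any base at each N, is the same on both strands, and 10 bases flank it on each side:
Socs3, chr11:117969502-117969530, minus strand: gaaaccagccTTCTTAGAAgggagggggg
Reg3b, chr6:78370746-78370774, plus strand: agcctgttctTTCTTGGAAactctttgag
Steap4, chr5:7960346-7960374, plus strand: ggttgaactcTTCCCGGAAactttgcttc
Cish, chr9:107296649-107296677, plus strand: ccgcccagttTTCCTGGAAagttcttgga

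The palindromes (TTCNNNGAA) began at position -154 for Socs3, -129 for Reg3b, -116 for Steap4 and 0 for Cish relative to the RefSeq start. Cish held another match at position 11, TTCTTGGAA, which begins in the printed flank. The start used for Socs3 lay 180 bases upstream of the start of a GENCODE transcript of the gene, inside the annotated gene span. On the minus strand the window ended at 117969317, before that transcript's start at 117969186. The bases directly upstream of that start were therefore not searched. Among the STAT3 targets, 2 of the 17 genes with a window held the palindrome. These matches describe letters in a window and are no measurement of binding.

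Socs3 counts were high and uneven. The gene lay at 260.0, 131.0 and 28.0 CPM in Nsd2f/f replicates 1 to 3, from 5247, 2217 and 346 counts, and at 179.7, 291.6 and 233.7 CPM in Nsd2Vil-KO replicates 1 to 3, from 3685, 5257 and 4574 counts. The Nsd2Vil-KO libraries kept to a narrower range, within which Nsd2f/f replicate 1 also fell, so the groups overlapped. The means were 139.6 ± 116 and 235 ± 56.0 CPM (SD, n = 3), and the log2 fold change was 0.75 with a standard error of 0.67 (edgeR p = 0.302, adjusted p = 0.992, exact permutation p = 0.3). Single Nsd2f/f libraries decided this value. It was 1.56 and passed the screening criterion without Nsd2f/f replicate 1, 0.27 without Nsd2f/f replicate 3, and 0.088 in the 4 libraries without Xist. Per Stat3 count, Socs3 had 1.24, 0.643 and 0.186 counts in Nsd2f/f and 0.849, 0.996 and 1.05 counts in Nsd2Vil-KO replicates 1 to 3, again with Nsd2f/f replicate 3 at the bottom.

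**Figure D3:**
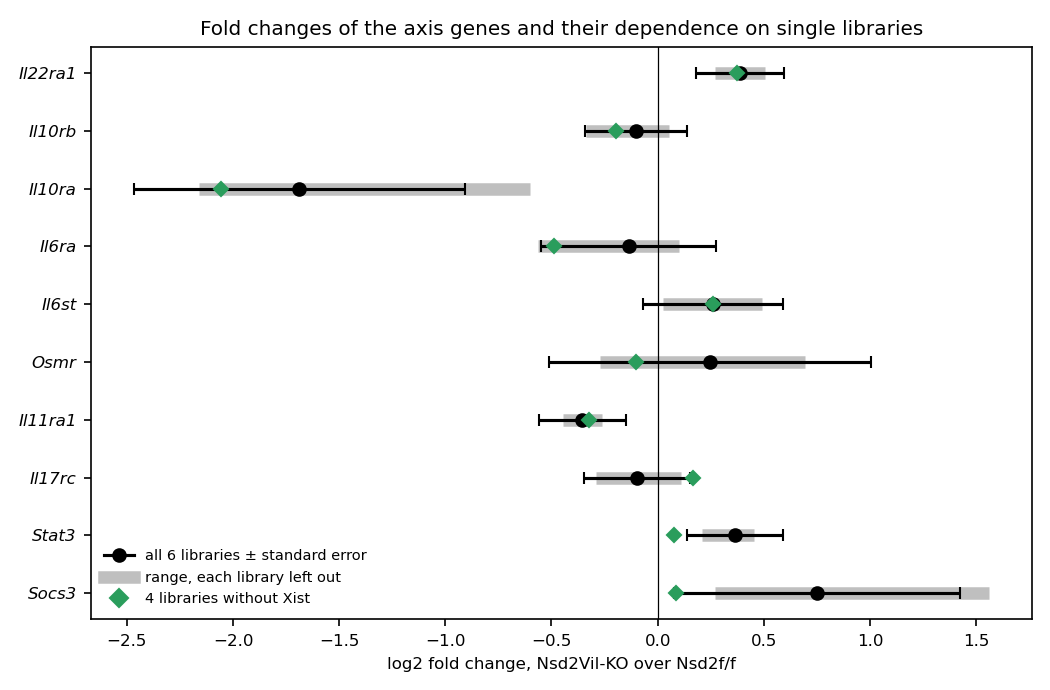
Fitted log2 fold changes of the 10 axis genes, Nsd2Vil-KO over Nsd2f/f (horizontal axis), with black points and standard errors for all 6 libraries, grey bars for the range when each library is left out, and green diamonds for the 4 libraries without Xist. The bars of Il10ra (-2.16 to -0.60) and Socs3 (0.27 to 1.56) are the longest, and the diamonds of Stat3 (0.079) and Socs3 (0.088) lie near 0.

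Nsd2f/f replicate 3 had the lowest CPM for 6 of the 10 genes, and Nsd2Vil-KO replicate 2 the highest for 4. These libraries had the lowest mean rank correlations with the others over all genes tested. The shares over all genes were not counted, so the numbers are no result about the axis. In the 4 libraries without Xist, the genotypes, with 2 libraries each, did not overlap for 7 of the 10 genes, where the same held for 44.0% of all genes tested. Il22ra1, Il6st and Stat3 were higher and Il10rb, Il10ra, Il6ra and Il11ra1 lower in Nsd2Vil-KO there, by log2 differences of means from -1.84 for Il10ra to 0.36 for Il22ra1. Of these 7, Il10ra alone passed the screening criterion in the fit of the 4 libraries, so that 1 of the 10 genes was called where 11.0% of all genes tested in that fit were.

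Levels of the genes relative to each other were compared only per length, as TPM (counts per base, scaled to a fixed total in each library) with the merged exon length of each gene. The order of the mean TPM over 6 libraries was Il17rc at 185, Socs3 at 180, Stat3 at 60.6, Il10rb at 30.2, Il22ra1 at 25.3, Il11ra1 at 11.0, Il6st at 9.06, Il10ra at 2.95, Osmr at 2.61 and Il6ra at 1.24. The chain of the IL-22 receptor was thus more abundant per length than the chains that bind IL-6 and oncostatin M. None of the 9 neighbouring pairs in this order had ranges over libraries that stood clear of each other. Compared within libraries by merged exon length, Stat3 was above Il10rb, Il22ra1 above Il11ra1 and Il6st above Il10ra in all 6. The nearest of these values were 9.90 TPM for Il6st and 9.59 TPM for Il10ra in Nsd2f/f replicate 1. The other neighbouring pairs did not keep their order in every library. Il17rc ranged from 98.6 to 263 TPM, Socs3 from 17.1 to 267 TPM, Il22ra1 from 12.2 to 38.3 TPM and Il6ra from 0.935 to 1.58 TPM. The order was not the same in each genotype. By the mean TPM in Nsd2Vil-KO, Socs3 (222) stood before Il17rc (193), Il6st (10.3) before Il11ra1 (10.2) and Osmr (2.85) before Il10ra (1.41), while the order in Nsd2f/f was that over all 6 libraries. With the longest transcript as length, Il10ra and Osmr exchanged places. On the TPM scale the median log2 difference of all genes, Nsd2Vil-KO over Nsd2f/f, was 0.14. TPM was therefore not used to test genotypes and served there only to check whether libraries separated. Such a check favours separations with Nsd2Vil-KO higher over those with it lower.

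**Figure D4:**
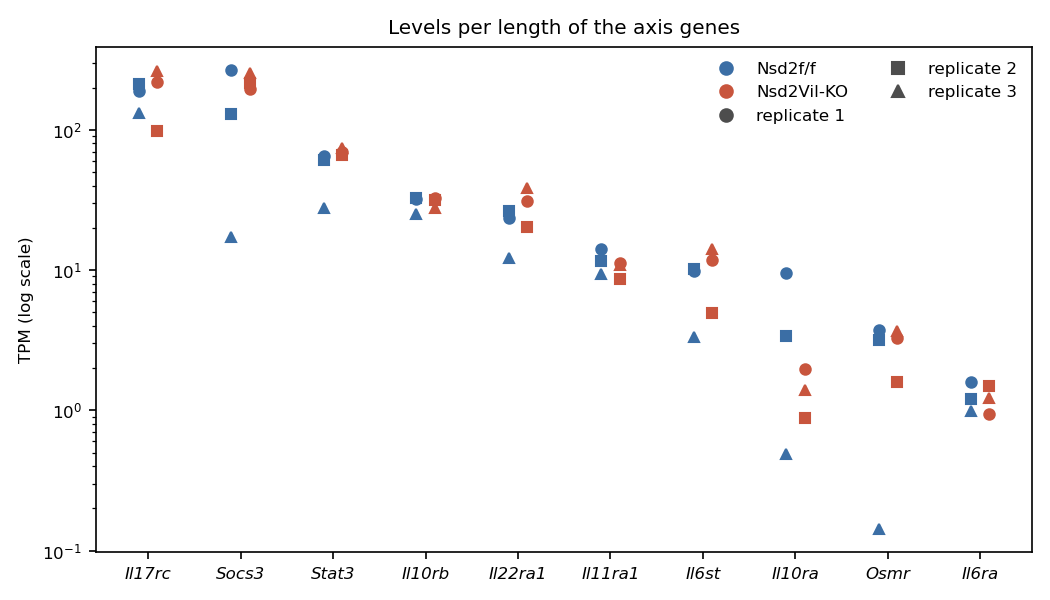
TPM of the 10 axis genes (vertical log axis) in each library, ordered by their mean over 6 libraries, with colours for genotypes and marker shapes for replicates. Il17rc (mean 185) and Socs3 (mean 180) lead, Il6ra (mean 1.24) is last, and the ranges of neighbours in the order overlap.

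By pattern across the 6 libraries, the tested genes nearest to Stat3 were Cdk2ap1, Zc3h7b and Akt1. Their root mean square differences from Stat3 in centred log2 CPM were 0.035, 0.037 and 0.051, where the median over all genes tested was 0.48. Those nearest to Socs3 were Gm4609, Tac1 and Soat2, at 0.21, 0.21 and 0.24 against a median of 1.21. Gm4609 was below 1 CPM in every library. Tac1, which encodes the precursor of the neuropeptide substance P, lay at 116.1, 56.2 and 15.4 CPM in Nsd2f/f and 101.8, 121.4 and 138.2 CPM in Nsd2Vil-KO replicates 1 to 3.

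The ligands of the axis were sparse. Of 18 ligand genes listed, 5 passed the filter on low counts and 3, Il19, Il20 and Il24, had 0 counts in all 6 libraries. Il22 held 46, 5 and 0 counts in Nsd2f/f and 17, 0 and 0 counts in Nsd2Vil-KO replicates 1 to 3, too few to be tested. Il6 held 60, 6 and 0 counts in Nsd2f/f and 17, 7 and 2 counts in Nsd2Vil-KO, and Il17a held 42, 2 and 0 against 20, 0 and 0. For each of these cytokines, which leukocytes and stromal cells produce, the highest library of each genotype was replicate 1. Replicate 1 also had the highest leukocyte sum and the highest fibroblast sum of its genotype. Il6 did not follow the leukocyte sum throughout, with 7 and 2 counts in Nsd2Vil-KO replicates 2 and 3 at sums of 24.7 and 31.0 CPM. The part of leukocyte or stromal RNA in these counts was not tested. Of the 15 ligand genes with any count, 9 were highest in Nsd2f/f replicate 1. The share over all genes was not counted, so this number is no result about the ligands.

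Among the 5 ligand genes tested, 2 were higher and 3 lower in Nsd2Vil-KO and 0 passed the criterion. Their median log2 fold change was -0.59, and it became 0.24 without Nsd2f/f replicate 1. Those with the smallest p were Ctf1 (cardiotrophin 1) and Clcf1 (cardiotrophin-like cytokine). Ctf1 lay at 3.02, 1.54 and 2.99 CPM in Nsd2f/f and 1.07, 1.78 and 1.28 CPM in Nsd2Vil-KO replicates 1 to 3, with a log2 fold change of -0.87 and a standard error of 0.45 (edgeR p = 0.0912, exact permutation p = 0.2). For Clcf1 a single library, Nsd2Vil-KO replicate 2 at 6.55 CPM, exceeded the other 5, which held 0.646 to 1.04 CPM.

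Of 14 other receptor genes of the family, 9 were tested, and 5 were higher and 4 lower, around a median of 0.019 on the log2 scale. The criterion called 1 of the 9 (11.1%, against 3.29% of all genes tested). This was Lifr, which encodes the chain that pairs with gp130 to receive leukaemia inhibitory factor. Lifr fell, from 1.98, 1.65 and 2.18 CPM in Nsd2f/f replicates 1 to 3 to 1.17, 0.943 and 0.358 CPM in Nsd2Vil-KO replicates 1 to 3. The groups did not overlap at these low levels, and the log2 fold change was -1.22 with a standard error of 0.50 (edgeR p = 0.0444, adjusted p = 0.992, exact permutation p = 0.1). The call was lost in the 5 fits that left out a library other than Nsd2Vil-KO replicate 1, with log2 fold changes of -1.32 to -0.86, and in the 4 libraries without Xist (-1.23). Without Nsd2Vil-KO replicate 1 it was kept, at -1.57. Il17ra, the partner chain of Il17rc, had a log2 fold change of 0.06 (edgeR p = 0.818, exact permutation p = 0.8).

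Of the JAK kinases and other STAT genes, 9 of 10 were tested, 6 were higher and 3 lower, 0 passed the criterion, and the median log2 fold change was 0.10. Jak3, the kinase of the common gamma chain receptors, had the smallest p. It lay at 37.3, 41.2 and 28.0 CPM in Nsd2f/f and at 47.1, 43.5 and 55.0 CPM in Nsd2Vil-KO replicates 1 to 3, without overlap, with a log2 fold change of 0.45 and a standard error of 0.21 (edgeR p = 0.0644, exact permutation p = 0.1). Stat5a came next with 0.28 and a standard error of 0.23 (edgeR p = 0.253, exact permutation p = 0.1). It overlaps Stat3 on the opposite strand.

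All 14 other inhibitor genes were tested, 8 were higher and 6 lower, 0 passed the criterion, and their median log2 fold change was 0.089. Ptpn6, the gene of the phosphatase SHP-1, which is known from leukocytes as well as epithelium, had a log2 fold change of -0.36 with a standard error of 0.20 (edgeR p = 0.104, exact permutation p = 0.1). Pias3, which encodes an inhibitor that binds STAT3, had a log2 fold change of 0.52 with a standard error of 0.28 (edgeR p = 0.110, exact permutation p = 0.3).

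Of the 21 STAT3 target genes listed, all were tested, 13 were higher and 8 lower in Nsd2Vil-KO, and 3 passed the criterion (14.3%, against 3.29% of all genes tested), all 3 higher. Their median log2 fold change was 0.29. Reg3b and Reg3g, which encode secreted antimicrobial lectins, and Hif1a, which encodes a transcription factor of the hypoxia response, were the genes called. Nsd2f/f replicate 3 was the lowest library for 15 of the 21 genes, and without it the median was -0.026. How often this library was lowest over all genes tested was not counted, so the 15 are no result about STAT3 targets.

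Reg3g rose, from 65.9, 34.7 and 1.70 CPM in Nsd2f/f to 144.9, 977.9 and 199.6 CPM in Nsd2Vil-KO replicates 1 to 3. Its log2 fold change was 3.69 with a standard error of 1.25 (edgeR p = 0.0209, adjusted p = 0.992, exact permutation p = 0.1). Reg3b, with 88.7 CPM or more in 5 libraries and 6.22 CPM in Nsd2f/f replicate 3, reached 3807 CPM in Nsd2Vil-KO replicate 2 and had a log2 fold change of 4.02 with a standard error of 1.38 (edgeR p = 0.0228, adjusted p = 0.992, exact permutation p = 0.1). For both genes the highest library was Nsd2Vil-KO replicate 2 and the lowest Nsd2f/f replicate 3, and the groups did not overlap. Without Nsd2Vil-KO replicate 2 the log2 fold changes were 2.33 for Reg3g and 2.09 for Reg3b, and neither passed the criterion, as neither did without Nsd2f/f replicate 2. In the 4 libraries without Xist both passed the criterion with smaller log2 fold changes, 1.78 for Reg3g and 1.54 for Reg3b. With Xist as a covariate the log2 fold changes were 3.27 and 3.06, and neither passed.

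Hif1a rose as well, from 206.4, 189.1 and 154.5 CPM in Nsd2f/f to 207.4, 581.4 and 330.3 CPM in Nsd2Vil-KO replicates 1 to 3, with a log2 fold change of 1.02 and a standard error of 0.38 (edgeR p = 0.0293, adjusted p = 0.992, exact permutation p = 0.1). The groups were separated only by the step from 206.4 to 207.4 CPM, between replicate 1 of each genotype. Without Nsd2Vil-KO replicate 2 its log2 fold change was 0.55, and it was 0.45 in the 4 libraries without Xist. Neither value passed the criterion, nor did those without Nsd2f/f replicate 2 or replicate 3. Nsd2Vil-KO replicate 2 also had the highest sum of 6 neutrophil markers, 2355 CPM against 196.2 to 866.0 CPM in the other 5 libraries. Ly6g gave 1355 CPM of that sum, against 163.1 to 237.4 CPM in the other 5 libraries, and S100a8 and S100a9 were highest in this library too. Cxcr2, Retnlg and Mmp8 were instead highest in Nsd2f/f replicate 1, at 12.5, 48.7 and 12.7 CPM against 5.10, 13.0 and 2.5 CPM in Nsd2Vil-KO replicate 2. The leukocyte sum of Nsd2Vil-KO replicate 2, 24.7 CPM, was the second lowest. The part of neutrophil RNA in these values was not tested.

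Other targets named for STAT3 did not pass. Lrg1, which encodes a secreted leucine-rich glycoprotein, ranged from 12.6 CPM in Nsd2f/f replicate 3 to 1351 CPM in Nsd2Vil-KO replicate 2 and had a log2 fold change of 1.72 (edgeR p = 0.150, exact permutation p = 0.2). Fut2, which encodes an epithelial fucosyltransferase, had 0.41 (edgeR p = 0.340, exact permutation p = 0.5), and the survival gene Bcl2l1 had 0.46 (edgeR p = 0.152, exact permutation p = 0.3). Saa3, an acute phase gene, lay in the other direction at -1.79 (edgeR p = 0.236, exact permutation p = 0.9).

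Of the 13 genes of IL-17 receptor signalling and its targets, 11 were higher and 2 lower, around a median of 0.61 on the log2 scale. Over all 14650 genes tested, 7346 were higher and 7304 lower. The median of the list was 0.50 without Nsd2Vil-KO replicate 2 and 0.47 in the 4 libraries without Xist. The criterion called 1 of the 13 (7.69%, against 3.29% of all genes tested). Zc3h12a, which encodes the ribonuclease Regnase-1 that degrades inflammatory mRNAs, rose from 92.2, 79.6 and 61.7 CPM in Nsd2f/f to 115.9, 152.3 and 155.6 CPM in Nsd2Vil-KO replicates 1 to 3. The groups did not overlap, and the log2 fold change was 0.86 with a standard error of 0.22 (edgeR p = 0.00554, adjusted p = 0.992, exact permutation p = 0.1). The gene passed the criterion in each fit that left out a library, with log2 fold changes of 0.72 to 1.00. The adaptor gene Traf3ip2 (ACT1) had a log2 fold change of 0.18 (edgeR p = 0.396, exact permutation p = 0.4).

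**Figure D5:**
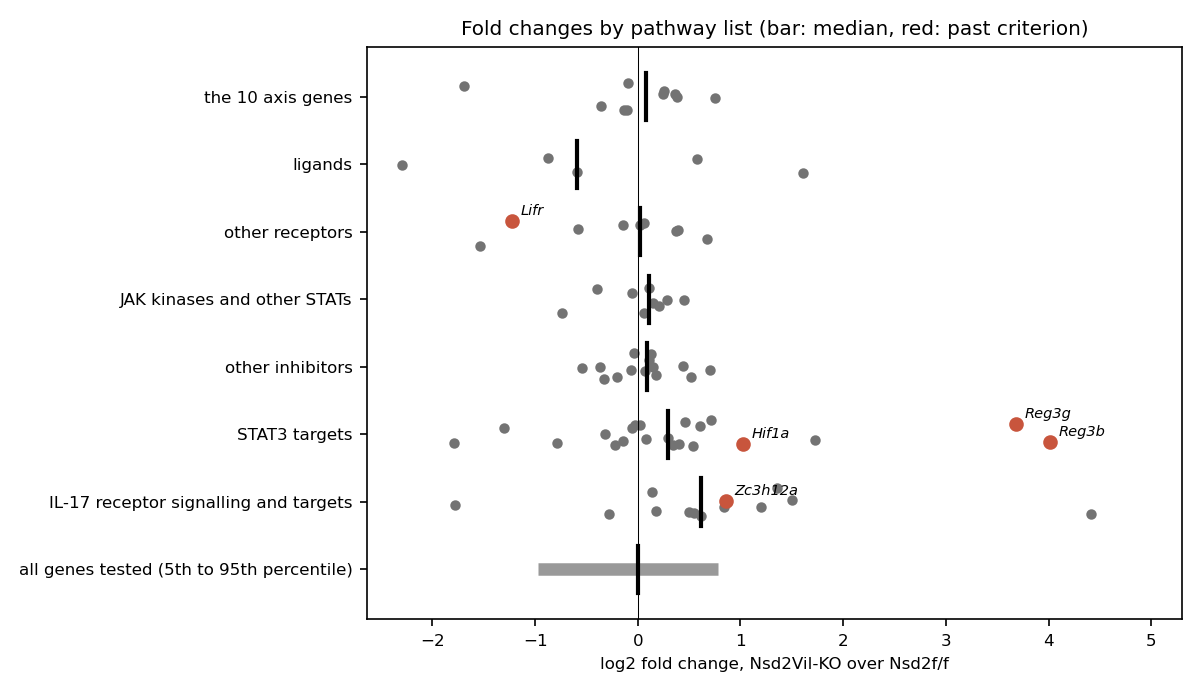
Log2 fold changes (horizontal axis, Nsd2Vil-KO over Nsd2f/f) of the tested genes of each pathway list, 1 point a gene, with a black bar at each median and red points for genes past the screening criterion. Called genes are Lifr (-1.22), Hif1a (1.02), Reg3g (3.69), Reg3b (4.02) and Zc3h12a (0.86), and the grey bar gives the 5th to 95th percentile of all genes tested, -0.97 to 0.78.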

How the data were processed

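Of each library, the authors deposited whole-number read counts per Ensembl gene, without normalisation. Their methods describe polyA selection, directional paired-end libraries, Cutadapt, Trimmomatic and HISAT2 alignment to GRCm38, while the labels name another library kit. How reads were assigned to genes, and whether by strand, is not given in the sources used here, and the authors' own FPKM comparison (StringTie, Ballgown) was not used. Groups came from the sample labels, 0 columns were left out, and no pair of libraries within a genotype agreed within sampling noise.

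Counts were tested in R 4.3.3 with edgeR 4.0.16 (TMM, filterByExpr by genotype, robust quasi-likelihood test, no covariate, Benjamini-Hochberg adjustment over all 14650 genes), after a check on simulated data. The study's results state a fold change above 1.2 with p below 0.05 and its methods an adjusted p below 0.05, and both were applied. Standard errors came from the fold change and the F statistic. Positions and lengths came from GENCODE vM21, which held 99.5% of the genes, and promoter windows from RefSeq GRCm38.p6. The genes named were the 10 axis genes and, of each list, those past the criterion or else the 2 with the smallest p, and for the nearest patterns the 3 nearest genes. Further list members (Il22, Il6, Il17a, Il17ra, Lrg1, Fut2, Bcl2l1, Saa3, Traf3ip2 and the listed genes with the palindrome) were named after their values were seen. The axis genes and lists were chosen with earlier results of these data known. Alternatives used limma 3.58.1, with voom and sample quality weights, and DESeq2 1.42.0. Figures used matplotlib 3.10.9.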

Additional observations from a re-analysis of the deposited data

Results flagged for a closer look

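Osmr and Stat3 had a genotype difference in the libraries with Xist transcripts that was unlike the one in the libraries without. The log2 difference between genotypes for Osmr was 3.07 with Xist and -0.11 without, and an interaction term in edgeR's quasi-likelihood test came to 3.31 on the log2 scale. For Stat3 the log2 differences were 0.96 and 0.068, and the interaction term came to 0.90 on the log2 scale. The term passed a threshold of 0.05 on the adjusted p for these 2 of the 10 axis genes (20%) and for 12.0% of all genes tested. The term compares 1 library of each genotype with Xist, Nsd2f/f replicate 3 and Nsd2Vil-KO replicate 2, with the other 4, and its spread comes only from those 4, like which the lone libraries are assumed to vary. It was chosen after the lone libraries were seen to stand apart. Its p-values therefore do not show that the genotype difference depends on Xist, and the values are given as a description of these libraries. The contrast was not particular to Osmr and Stat3. The log2 differences with and without Xist were 3.38 and 0.15 for Socs3, 0.52 and -1.84 for Il10ra, and -0.71 and 0.15 for Il17rc.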

How the results depend on the processing

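Of 170 values of the axis genes under 17 settings, 153 kept their direction and their side of the screening criterion, 9 passed it in the same direction and 8 changed sign, and 6 genes kept a direction in every setting. Il17rc turned to 0.11 with limma-voom and 0.16 in the 4 libraries without Xist, and ranged from -0.29 to 0.11 with each library left out. Osmr turned to -0.10 in those 4 libraries and ranged from -0.27 to 0.69. Il10rb ranged from -0.34 to 0.054 (above 0 without Nsd2f/f replicate 3, at 0.033, or Nsd2Vil-KO replicate 3) and Il6ra from -0.56 to 0.10. The axis genes past the criterion numbered 1 without a filter on low counts (Il10ra), 1 with DESeq2 (Il10ra), 3 with limma-voom (Il22ra1 higher, Il10ra and Il11ra1 lower), 1 with Xist as a covariate (Il22ra1), 1 in the 4 libraries without Xist (Il10ra) and 0 to 1 with each library left out. Their adjusted p was 0.375 or higher throughout. Genes of the pathway lists past the criterion, 5 as reported, numbered 10 with limma-voom, 8 with the covariate, 12 in the 4 libraries and 4 to 8 with each library left out. Reg3b, Reg3g, Hif1a and Lifr together lost their call in 22 values and Zc3h12a in 0, and DESeq2 gave no p for Reg3b. All genes past the criterion, 482 of 14650 as reported (241 higher, 241 lower), numbered 861 of 26360 without a filter (377 higher, 484 lower). They numbered 1440 of 14650 (9.83%) with limma-voom (682 higher, 758 lower) and 1145 of 14650 with the covariate. In the 4 libraries they numbered 1646 of 15030 (11.0%), and 323 to 769 with each library left out. The higher numbers of list genes with limma-voom, the covariate and the 4 libraries thus came with more calls over all genes. They are no result about the lists. At an adjusted p below 0.05 DESeq2 called 4 genes and edgeR 0. A replicate block gave 303 genes (133 higher, 170 lower) and 0 axis genes. The correlations of same-numbered deviations were 0.32, -0.35 and -0.11. Nsd2f/f replicate 2 with Nsd2Vil-KO replicate 3 gave 0.31, and Nsd2f/f replicate 3 with Nsd2Vil-KO replicate 2 gave 0.30. Deviations from a mean of 3 libraries depend on each other, so these values cannot show whether the numbers pair the libraries. The order of levels moved for 2 genes with the longest transcript as length. Low counts limit Il22, Il6 and Il17a most, where a count of 0 allows up to 3 counts a library, a limit that covers counting error only.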
